A study of Mus musculus with 16 samples.

Results

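H3K4me3 peaks found in non-HFSCs and missing from HFSCs made up 1128 of the 24498 H3K4me3 peaks of nEA-HFSCs, and of 219698 peaks in all 12 lists of the series. The peaks compared here came from cells sorted by FACS from the skin of mice of the CD1 x FVB strain, which the labels give as male. EA-HFSCs (hair follicle stem cells at early anagen, PD22 to PD25) and LC-HFSCs (late catagen, PD38 to PD44) were CD34+/α6-integrin+ bulge cells, and their non-HFSC counterparts nEA-HFSCs and nLC-HFSCs were CD34−/α6-integrin+ cells of the same ages, which the study describes as mainly epidermis with lower outer root sheath. Skin of 15 to 20 mice was pooled, and reads of independent experiments were joined before peaks were called, so that each population and mark had 1 list and no replicate spread could be given. A peak was taken when it came from the nEA-HFSC list, shared at least 1 bp with an nLC-HFSC peak and shared none with a peak of EA-HFSCs or LC-HFSCs. These peaks are called non-HFSC-only peaks below. They were chosen by their H3K4me3 peaks, so their H3K4me3 values are a description. A sorted population is a bulk of cells, in which a mark held by fewer cells and a weaker mark in all cells cannot be told apart. H3K27me3, H3K9me3, position and sequence did not enter the choice.

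H3K4me3 is the trimethyl mark that SET1 and MLL enzymes place on nucleosomes at active or poised promoters, where unmethylated CpG islands recruit them. H3K27me3 is laid down by the Polycomb complex PRC2 and goes with silenced developmental genes, and H3K9me3 with heterochromatin. In skin, CD34 and α6-integrin separate bulge stem cells from the other basal keratinocytes of follicle and epidermis. Basal cells of the interfollicular epidermis feed a cornifying programme of keratins, transglutaminases and barrier proteins that bulge cells do not run.

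Starts of Skint1, Krt77, Il1f5 and Tgm3, genes known from epidermis, were among the strongest non-HFSC-only peaks. These 4 were picked as examples and not by rank. Start peaks of Cyp2w1, 1600014C10Rik, Figf, Arhgdib and Serpinb7 were also among the 15 strongest and have no sequence here. The sequences below, from mm9, run 5′ to 3′ with each CpG in capitals. The median was 15.8 CpG per kb in non-HFSC-only peaks and 28.9 over all nEA-HFSC peaks, with overlapping quartiles. Among peaks over 3000 bp from a gene start the medians were closer, at 15.8 and 18.5. The first 4 are the 200 bases just before the annotated start, on the gene's strand, of genes whose start lay in a non-HFSC-only peak: Skint1 at chr4:111678674-111678873 (plus strand), Krt77 at chr15:101700137-101700336 (minus strand), Il1f5 at chr2:24132274-24132473 (plus strand) and Tgm3 at chr2:129837885-129838084 (plus strand). They held 0, 2, 0 and 6 CpG.
Skint1: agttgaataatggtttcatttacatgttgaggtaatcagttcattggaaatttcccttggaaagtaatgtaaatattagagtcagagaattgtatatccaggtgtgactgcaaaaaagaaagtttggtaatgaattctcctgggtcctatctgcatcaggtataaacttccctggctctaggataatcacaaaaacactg
Krt77: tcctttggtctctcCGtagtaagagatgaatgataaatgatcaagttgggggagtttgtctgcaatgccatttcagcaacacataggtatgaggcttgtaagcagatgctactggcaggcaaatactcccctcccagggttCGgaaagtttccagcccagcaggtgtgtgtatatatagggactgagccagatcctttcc
Il1f5: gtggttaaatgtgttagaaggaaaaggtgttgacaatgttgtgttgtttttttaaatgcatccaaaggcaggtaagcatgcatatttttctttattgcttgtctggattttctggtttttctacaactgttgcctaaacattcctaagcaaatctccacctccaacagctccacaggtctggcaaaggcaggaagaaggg
Tgm3: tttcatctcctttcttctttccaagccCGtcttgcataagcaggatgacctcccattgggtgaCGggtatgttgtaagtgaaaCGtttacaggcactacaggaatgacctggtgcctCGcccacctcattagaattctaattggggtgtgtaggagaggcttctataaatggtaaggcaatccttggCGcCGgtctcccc
The next sequence is the middle 200 bases of the strongest non-HFSC-only peak outside genes, at chr13:37673824-37674023 (plus strand), whose nearest gene start was that of Rreb1. It held 3 CpG.
Rreb1: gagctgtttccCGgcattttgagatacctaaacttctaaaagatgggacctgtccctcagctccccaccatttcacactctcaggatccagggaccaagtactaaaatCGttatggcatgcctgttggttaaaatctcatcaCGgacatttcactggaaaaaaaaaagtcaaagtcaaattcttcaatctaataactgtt
The next is the middle 200 bases of a peak that carried H3K27me3 in all 4 populations, in an intron of Lmx1a at chr1:169622409-169622608 (plus strand). It held 16 CpG.
Lmx1a: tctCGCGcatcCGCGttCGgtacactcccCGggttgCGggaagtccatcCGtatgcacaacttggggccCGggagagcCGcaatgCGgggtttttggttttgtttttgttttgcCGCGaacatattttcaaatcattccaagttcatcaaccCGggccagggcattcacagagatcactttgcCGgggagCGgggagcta
For comparison, the last is the sequence before the start of Ccpg1 at chr9:72833036-72833235 (plus strand), where all 4 populations had H3K4me3. It held 16 CpG. Its peak was the first in genome order, among promoter peaks of all 4 populations, at the highest nEA-HFSC score.
Ccpg1: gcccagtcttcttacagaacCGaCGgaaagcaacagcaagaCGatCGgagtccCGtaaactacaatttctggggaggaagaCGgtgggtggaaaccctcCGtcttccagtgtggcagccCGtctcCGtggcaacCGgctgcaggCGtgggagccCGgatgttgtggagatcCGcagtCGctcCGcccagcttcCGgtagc
In these examples the 200 bases held 0 to 6 CpG at the 4 starts, the most at Tgm3, and 3 in the strongest intergenic peak. They held 16 in the Lmx1a peak, where H3K27me3 lay beside H3K4me3, and 16 at the shared promoter.

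Of the 24498 nEA-HFSC peaks, 17673 (72.1%) overlapped an nLC-HFSC peak and 14001 (57.2%) a peak of every other population. Another 2409 (9.83%) were shared with nLC-HFSCs and EA-HFSCs but not with LC-HFSCs, whose list was the shortest of the 4 at 14718 peaks. The non-HFSC-only peaks were 4.60% (95% Wilson interval 4.35 to 4.87, counting error only) of the list. They overlapped 1124 nLC-HFSC peaks. The mirror set, EA-HFSC peaks with an LC-HFSC peak and no non-HFSC peak, had 289 peaks and is called HFSC-only.

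Non-HFSC-only peaks scored lower and were narrower than the bulk of nEA-HFSC peaks, as distal peaks were in general. The score in the lists rises as the p-value that MACS gave a peak against IgG falls, as 10 times its negative log10. Its median over the 1128 peaks was 122 (quartiles 82.8 to 195, range 50.0 to 3100.0), against 462 over all nEA-HFSC peaks and 1823 over peaks of all 4 populations. Among distal peaks alone, those with their middle over 3000 bp from a protein-coding gene start, the median score was 122 for 1009 non-HFSC-only peaks and 126 for all nEA-HFSC peaks. In all, 691 (61.3%) scored at least 100, 274 at least 200 and 39 at least 500. By score band, non-HFSC-only peaks were 7.52% of nEA-HFSC peaks scoring 50 to 100, 11.6% of those at 100 to 200, 7.65% of those at 200 to 500, and 0.324% of those at 500 or more. The median width was 1082 bp (range 307 to 6198), against 1671 bp for all nEA-HFSC peaks and 2402 bp for peaks of all 4 populations. Among distal peaks it was 1076 bp, against 1139 bp. Within 3000 bp of a start the sets stood far apart, with a median score of 130 against 1821 and a median width of 1153 bp against 2376 bp. Non-HFSC-only peaks covered 1.38 Mb in all.

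The median CpG ratio (observed CpG over that expected from the C and G content) was 0.282 (quartiles 0.212 to 0.367). It was 0.457 over all nEA-HFSC peaks, 0.549 over peaks of all 4 populations and 0.311 over HFSC-only peaks. Among distal peaks the medians were 0.284 for non-HFSC-only peaks, 0.320 for all nEA-HFSC peaks, 0.432 for peaks of all 4 populations and 0.302 for HFSC-only peaks. Near starts they were 0.254, 0.567, 0.575 and 0.419 in the same order. The plot of peak sets shows these medians with their quartiles.

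**Figure D1:**
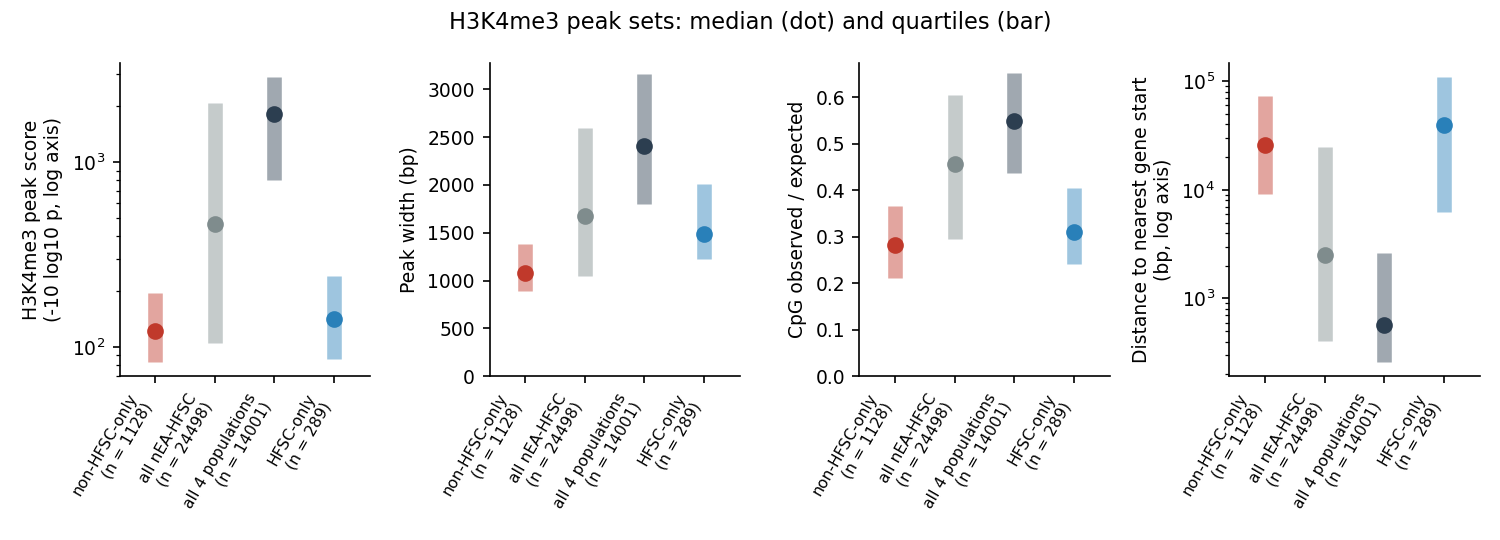
H3K4me3 peak score (log axis), peak width in bp, CpG observed over expected, and distance in bp from the middle of the peak to the nearest protein-coding gene start (log axis) for 4 peak sets. Dots are medians and bars run between quartiles. Non-HFSC-only peaks (median score 122, CpG ratio 0.282, distance 25858 bp) lie near HFSC-only peaks (142, 0.311, 39405 bp) and apart from peaks of all 4 populations (1823, 0.549, 568 bp).

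By the mm9 gene annotation, 530 of the 1128 non-HFSC-only peaks (47.0%, 44.1 to 49.9) had their middle between genes and 488 (43.3%) in introns. Only 47 (4.17%, 3.15 to 5.50) had it in a promoter (1000 bp before to 100 bp after a start), 11 in a 5′ UTR, 18 in a 3′ UTR and 34 in other exons. Over all nEA-HFSC peaks 20.7% lay in promoters and 25.2% between genes. The middle was within 3000 bp of a start in 119 (10.5%, 8.89 to 12.5), against 51.3% of all nEA-HFSC peaks, 75.6% of peaks of all 4 populations and 18.4% of HFSC-only peaks. It was over 50 kb away in 377 (33.4%), against 15.5% of all nEA-HFSC peaks. Of the 39 strongest peaks, scoring at least 500, 17 (43.6%) were within 3000 bp of a start, compared with 10.5% of those scoring 50 to 100. Of all 12027 nEA-HFSC peaks with such a score 9780 were.

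The distance to the nearest HFSC H3K4me3 peak had a median of 15970 bp (quartiles 4937 to 40563). In 688 of the 1128 (61.0%) it was over 10 kb and in 91 (8.07%) under 1000 bp. Just inside the rule lay a peak near Frs2 with a gap of 7 bp to an HFSC peak, and just outside it a peak near Fcgbp that shared 4 bp with one. For 15 non-HFSC-only peaks an overlapping nLC-HFSC peak itself reached an HFSC peak beyond them. Their nEA-HFSC scores were at most 135.62, and they included 8 of the 15 peaks that scored at least 500 in nLC-HFSCs.

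Both non-HFSC lists scored most of these peaks low. The median nLC-HFSC score was 81.6, and 384 (34.0%) reached 100. In both lists 302 (26.8%) did. The nLC-HFSC score was above the nEA-HFSC score in 282 peaks (25.0%). Among the 39 that scored at least 500 in nEA-HFSCs it was so for 1, a low count that a cut on the nEA-HFSC score favours. That peak was nearest to Pvrl1 (nectin-1, a cell adhesion molecule), at 715.71 in nEA-HFSCs and 1561.30 in nLC-HFSCs. A score depends on the depth of its library, so scores of different lists are set side by side here and not compared as levels. A score of 3100.00 was shared by 2701 nEA-HFSC peaks, and the few higher ones in that list (275) ended at 3233.06, so strong peaks are not well ranked.

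**Figure D2:**
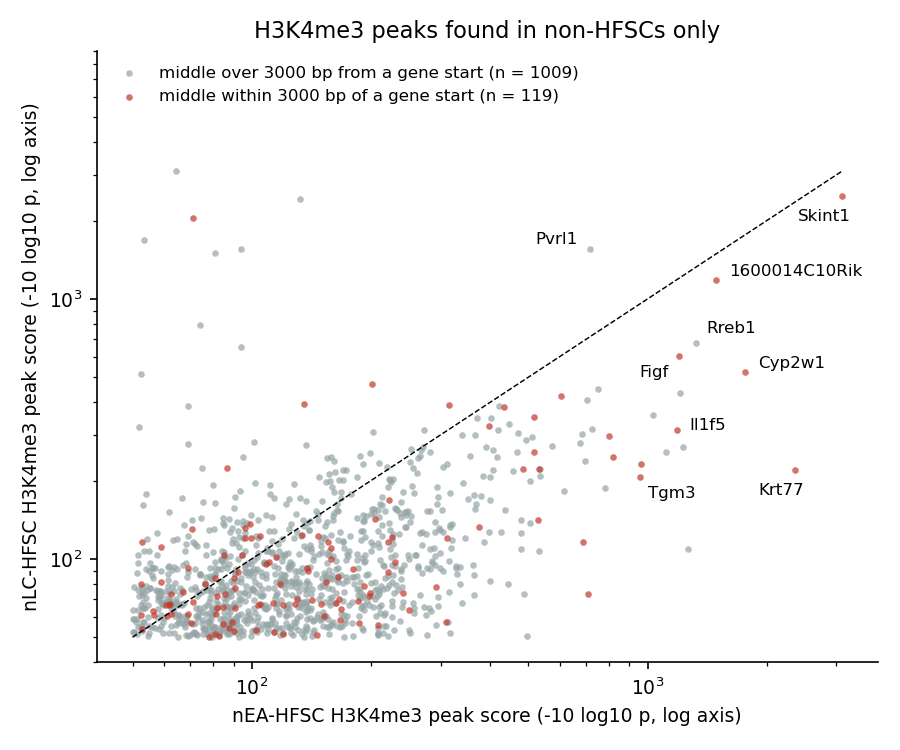
H3K4me3 score in nEA-HFSCs (x axis) and in the overlapping nLC-HFSC peak (y axis), both on log axes, for the 1128 non-HFSC-only peaks. Red points have their middle within 3000 bp of a protein-coding gene start (119), grey points do not (1009), and the dashed line marks equal scores. Skint1 scored 3100.00 and 2480.98, and most points crowd below 200 on both axes.

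The strongest non-HFSC-only peak covered the start of Skint1, a member of the butyrophilin-like Skint family of skin and thymus that is known for its part in the development of epidermal γδ T cells. It ran over chr4:111678045-111682783 (4739 bp), scored 3100.00 in nEA-HFSCs and 2480.98 in nLC-HFSCs, and lay 62241 bp from the nearest HFSC peak. The start of Krt77, which encodes a type II keratin, came next at chr15:101696021-101700563, with 2363.77 in nEA-HFSCs and 219.69 in nLC-HFSCs. Neither start had an H3K27me3 peak in any population.

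Il1f5, Tgm3 and Serpinb7 were also among the 15 strongest. At Il1f5, the antagonist of the interleukin-36 receptor, the peak chr2:24131771-24133836 scored 1188.43 in nEA-HFSCs and 313.04 in nLC-HFSCs. At Tgm3, a transglutaminase that crosslinks the cornified envelope, chr2:129837588-129840531 scored 954.46 and 207.15, and no HFSC H3K4me3 peak lay within 161939 bp. Serpinb7, a protease inhibitor, had chr1:109295786-109299309 at 819.70 and 247.66. In each of these 3 the nEA-HFSC score was the higher, which ranking by that score favours.

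Other strong peaks sat at starts of genes with different roles. They were found at Cyp2w1, a cytochrome P450 (1765.93 in nEA-HFSCs and 521.40 in nLC-HFSCs), 1600014C10Rik (1490.63 and 1179.35), Figf, the growth factor VEGF-D (1203.47 and 604.68), and Arhgdib (961.26 and 232.57). At Arhgdib an HFSC peak lay only 429 bp away, and EA-HFSCs had H3K4me3 within 3000 bp of the same start. The other 3 had none there.

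The remaining 6 of the 15 strongest were not at a start. The peak nearest to Rreb1, a zinc finger transcription factor, lay between genes at position −196345 bp from its start, at chr13:37672475-37675373, with 1326.10 in nEA-HFSCs and 676.67 in nLC-HFSCs. A peak nearest to Gm10272 lay between genes (1264.31 and 109.16), as did the peak nearest to Lrrn2, which encodes a leucine-rich repeat protein of neurons (1205.52 and 435.71). Intronic peaks stood in Rab27a, a GTPase of vesicle and melanosome transport (1229.76 and 268.79), in Dcun1d3 (nearest start Lyrm1, 1110.13 and 258.30) and in Rad51l1, a recombination factor (1031.91 and 357.25). The intronic peak in Dcun1d3 was the widest of all at 6198 bp, ahead of Cyp2w1 with 6085 bp.

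With a window of 3000 bp on each side of the annotated start, 150 genes had a non-HFSC-only peak at the start, or 0.671% of 22367 protein-coding genes. They held 138 distinct peaks, since neighbouring genes such as Skint7 and Skint8 or Tnf and Lta shared one. At 93 of the 150 neither HFSC population had H3K4me3 in the window. At the other 57 an HFSC peak stood at the start too, and the non-HFSC-only peak flanked it. For all genes the share with an HFSC peak there was 60.5%. All but 1 of the 17 genes whose peak scored at least 500 were without HFSC H3K4me3 at the start, the exception being Arhgdib.

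Among marker lists of skin cell types, the interfollicular epidermis list had 4 of its 23 genes with a non-HFSC-only peak at the start, against 0.671% of all genes. The lists had been written with earlier results of these data known. They were Krt77, Casp14, a caspase of the cornified layer (529.54 in nEA-HFSCs and 141.22 in nLC-HFSCs), Skint3 (104.86 and 122.17) and Skint5 (76.27 and 80.12). Over that list 18 genes had H3K4me3 at the start in nEA-HFSCs and 15 in nLC-HFSCs, against 9 in each HFSC population. The shares over all protein-coding genes were 59.6% in nEA-HFSCs, 56.6% in nLC-HFSCs, 60.4% in EA-HFSCs and 53.9% in LC-HFSCs. None of the 23 had H3K27me3 there in LC-HFSCs or in either non-HFSC population, and 2 had it in EA-HFSCs, Lor at a score of 44.52 and Grhl3 at 76.02. Over all genes the H3K27me3 shares were 13.0% in EA-HFSCs, 3.39% in LC-HFSCs, 15.6% in nEA-HFSCs and 11.9% in nLC-HFSCs. Krt1, a keratin of differentiating epidermis, had scores of 1642.50 in nEA-HFSCs and 617.49 in nLC-HFSCs and no HFSC peak at its start. Its nEA-HFSC peak reached an EA-HFSC peak at the far end of the gene, so it did not meet the rule.

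The Skint family had the highest share of the lists and families counted, with 6 of 11 genes: Skint1, Skint3, Skint5, Skint7, Skint8 and Skint11. Skint7 and Skint8 shared a peak of 220.61 in nEA-HFSCs and 116.67 in nLC-HFSCs, and Skint11 had 159.03 and 110.16. In nEA-HFSCs 9 of the 11 starts had H3K4me3 and in nLC-HFSCs 7. In EA-HFSCs 2 did, Skint4 (624.44) and Skint10 (103.77), and in LC-HFSCs 1, Skint4 (129.91). H3K27me3 was found at 0 of 11 starts in every population. Over all protein-coding genes its share ran from 3.39% in LC-HFSCs to 15.6% in nEA-HFSCs, so 11 starts would hold few or none at the background share. Skint genes are close paralogs, so reads could be shared among them or lost where they map to several copies.

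The sebaceous gland and upper follicle list had 2 of 20 genes, Krt79, a keratin of the upper follicle duct (225.59 in nEA-HFSCs and 121.17 in nLC-HFSCs), and Plin5, a lipid droplet protein (70.16 and 56.67). The Plin5 peak was shared with Lrg1 and stood with H3K27me3 of EA-HFSCs (433.02), nEA-HFSCs (289.70) and nLC-HFSCs (258.60). Among 50 keratin genes only Krt77 and Krt79 had such a peak. Collagens had 1 of 43, Col16a1 (65.66 in nEA-HFSCs), and semaphorins and plexins 1 of 29, Sema3c (90.69), both with HFSC H3K4me3 in the window too.

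No gene of the hair matrix and hair shaft (19 genes), melanocyte (18), Schwann cell and glia (14), endothelium (25), leukocyte (25), fibroblast and pericyte (18) or Merkel cell (9) lists had a non-HFSC-only peak at the start. With 0.671% of all genes having one, lists of this size would hold few or none at the background share. Of the leukocyte starts 5 had H3K4me3 in each non-HFSC population and 5 and 4 in the HFSCs at early anagen and late catagen. For melanocytes the numbers were 7 in nEA-HFSCs, 3 in nLC-HFSCs, 8 in EA-HFSCs and, at late catagen, 5 in LC-HFSCs. The part of admixed cells in the other results was not tested. The bulge stem cell list also had 0 of 20 at the start. Yet 4 of the 20 (Cd34, Id2, Lhx2 and Nfib) were the nearest gene of a distal non-HFSC-only peak, at nEA-HFSC scores of 151.32 (Cd34), 79.79 (Id2), 53.22 (Lhx2) and 68.77 (Nfib). In the interfollicular epidermis list 5 of 23 were the nearest gene of one, and 4.44% of all genes were. The bulge list had H3K4me3 at 19 starts in each HFSC population, 18 in nEA-HFSCs and 17 in nLC-HFSCs. H3K27me3 stood at 0 of these 20 starts in both HFSC populations, at 10 in nEA-HFSCs and at 11 in nLC-HFSCs. Over all genes the shares were 13.0% in EA-HFSCs, 3.39% in LC-HFSCs, 15.6% in nEA-HFSCs and 11.9% in nLC-HFSCs. Cd34, the surface marker of the sort, had H3K4me3 only in HFSCs (3100.00 at early anagen and 1734.66 at late catagen) and H3K27me3 only in nEA-HFSCs (271.17) and nLC-HFSCs (119.66). The homeobox (127 genes), Sox (19), forkhead (43), T-box (13), keratin-associated protein (46), late envelope, Sprr and S100a (47), claudin (27), interleukin receptor and chemokine (96), Wnt (29) and ephrin (22) families had 0.

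**Figure D3:**
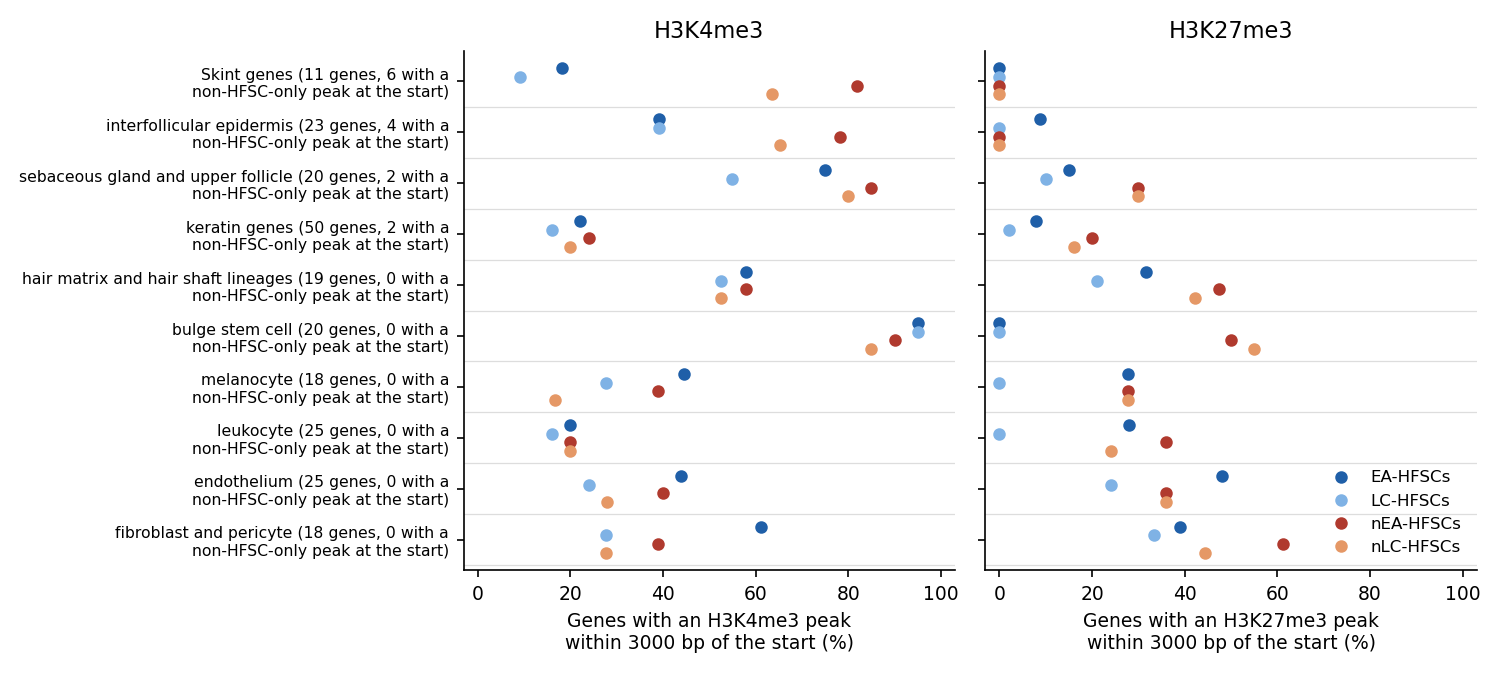
Percentage of genes of 10 lists with an H3K4me3 (left) or H3K27me3 (right) peak within 3000 bp of the start, with 1 point per population. The Skint genes and the interfollicular epidermis list have the non-HFSC points (red and orange) to the right of the HFSC points (blue) for H3K4me3, and for the bulge stem cell list H3K27me3 is seen in the non-HFSCs only.

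Of the 93 starts without HFSC H3K4me3, 8 more are named here, chosen after their values were seen, and no list holds them together. They were Il1f9, an interleukin-36 cytokine (533.30 in nEA-HFSCs), the defensins Defb1 (516.48) and Defb6 (110.86), the alarmin Il33 (99.27), the ETS factors Ehf (606.06) and Elf3 (310.01), and the EGF receptor ligands Epgn (220.87) and Ereg (113.77). Ehf had an EA-HFSC H3K27me3 peak in the window at a score of 61.17 and Ereg one at 451.27. The other 6 had none. Il1f9 and Il1f5 lie in the same interleukin-1 family cluster. The 93 starts also held other immune genes, likewise chosen after their values were seen. Among them were Fcgr4 (119.94 in nEA-HFSCs), Gbp6 (119.88), Il13 (90.17), Arg1 (85.26), and Tnf and Lta (84.78).

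**Figure D4:**
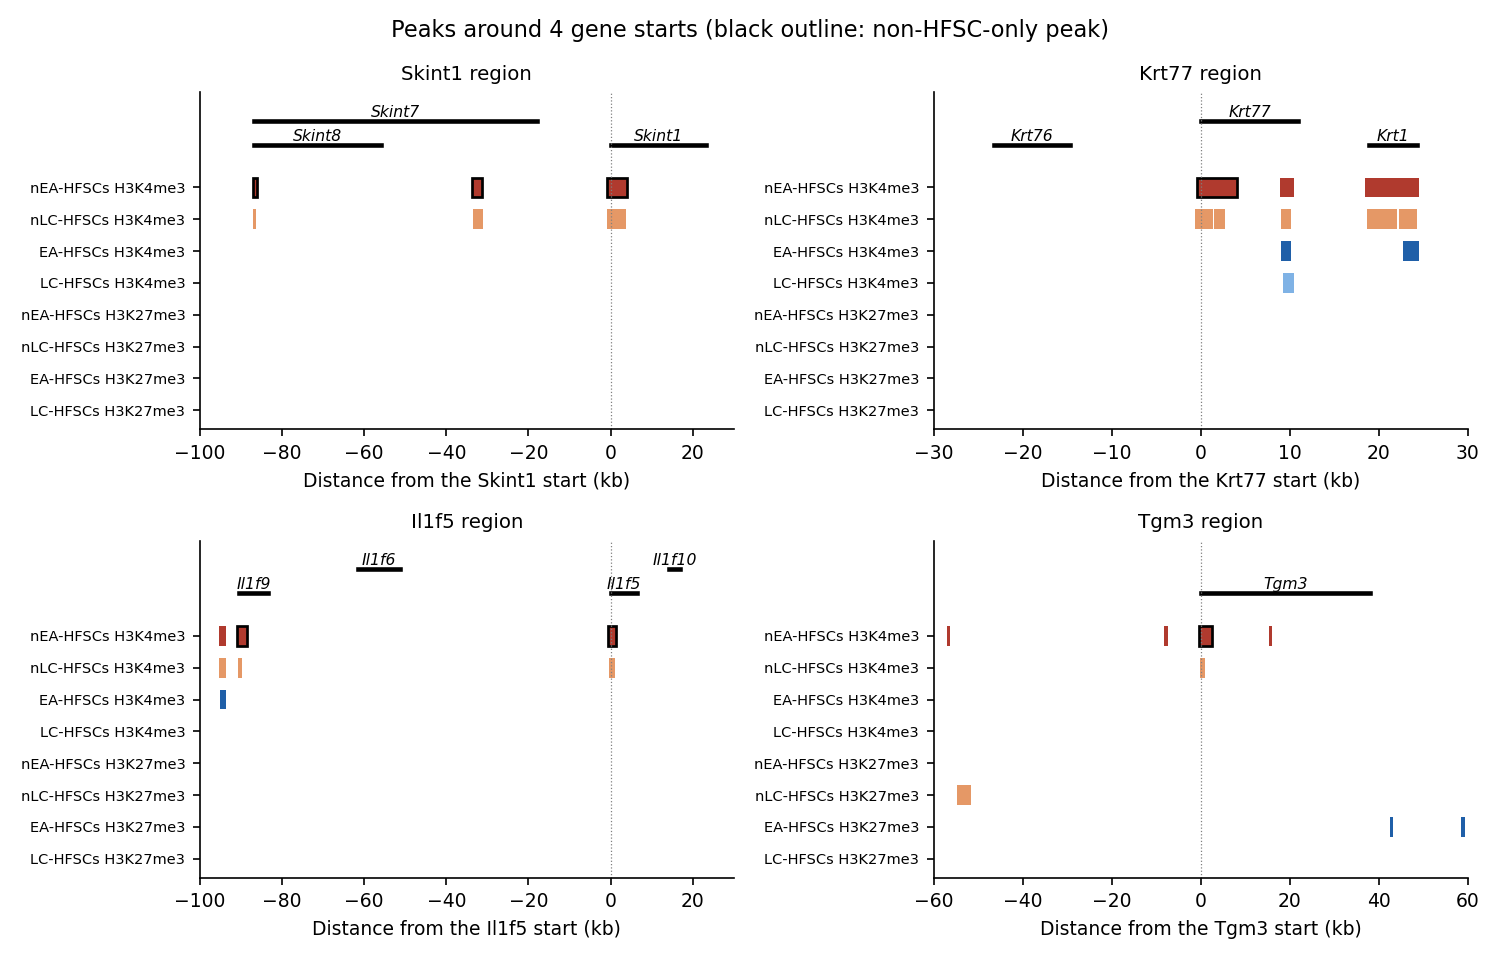
Peaks of H3K4me3 and H3K27me3 in the 4 populations around the starts of Skint1, Krt77, Il1f5 and Tgm3, as distance in kb along the gene's strand; genes are black bars and non-HFSC-only peaks are outlined. No HFSC H3K4me3 peak reaches an outlined peak, and no H3K27me3 peak lies on any of them. The 4 genes are picked examples, not the 4 highest scores.

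Of the protein-coding genes, 992 (4.44% of 22367) were nearest to at least 1 non-HFSC-only peak, 889 of them to exactly 1, 75 to 2, 24 to 3, 3 to 4 and 1 to 5. The gene with 5 was Tiam1, an activator of the GTPase Rac, whose peaks scored from 83.38 to 204.56 and lay up to 214574 bp from the start. Cd47, a "don't eat me" surface protein, Rad51l1 and the zinc finger gene Zfp516 had 4 each. These 4 genes had H3K4me3 at the start in all 4 populations. Of the 24 with 3, the first 6 in alphabetical order are given. Bhlhe40, a transcription factor of the circadian clock, Hivep2, a zinc finger factor, and Cpxm2, of the carboxypeptidase family, also had it in all 4. Cysltr1, a leukotriene receptor, had it in the non-HFSCs alone, with peaks of 375.70, 215.91 and 115.37 in nEA-HFSCs. Dlg2, a scaffold protein of synapses, and 3300002A11Rik had it in none. All 3 peaks nearest to the start of 3300002A11Rik lay in introns of Foxn3. Other genes nearest to 3 peaks included Klf5, a transcription factor of epithelia, Osmr, the oncostatin M receptor, and Tgfbr3, a TGF-β co-receptor (the last 3 chosen after their values were seen).

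Most genes nearest to distal non-HFSC-only peaks had HFSC H3K4me3 at the start. Of these 885 genes 692 (78.2%, 75.4 to 80.8) had HFSC H3K4me3 at the start, and 679 (76.7%) had it in both non-HFSC populations. For genes nearest to any distal nEA-HFSC peak, the HFSC share was 74.5%. The nearest start is the rule of assignment, and which gene a distal peak acts on was not measured. Non-HFSC-only peaks less than 100 kb apart formed 95 pairs, 23 runs of 3 and 7 runs of 4, with 841 peaks on their own. Runs with no HFSC H3K4me3 peak inside included 4 peaks in 20.8 kb at Sectm1a and Sectm1b, 3 in 5.61 kb before Osmr, 3 in 91.1 kb from Skint8 to Skint1, and 4 in 142 kb in Rad51l1. By chromosome, the share of nEA-HFSC peaks that were non-HFSC-only ran from 2.83% on X to 6.44% on 13, leaving out Y with 3 peaks.

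H3K27me3 of EA-HFSCs was somewhat less frequent at non-HFSC-only peaks than at all nEA-HFSC H3K4me3 peaks, and near its share in peaks of all 4 populations. An EA-HFSC H3K27me3 peak overlapped 76 of the 1128 (6.74%, 5.42 to 8.35), against 8.48% of all nEA-HFSC H3K4me3 peaks and 5.84% of peaks of all 4 populations. An LC-HFSC one overlapped 13 (1.15%, 0.675 to 1.96), against 2.27% and 1.41%. The LC-HFSC H3K27me3 list is short, at 1909 peaks to 25534 in EA-HFSCs, which bounds its share. In the non-HFSCs themselves H3K27me3 overlapped 65 in nEA-HFSCs (5.76%, 4.55 to 7.28, against 12.0%) and 49 in nLC-HFSCs (4.34%, 3.30 to 5.70, against 8.89%). All 13 with LC-HFSC H3K27me3 had it in EA-HFSCs too. No peak had LC-HFSC H3K27me3 alone.

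H3K27me3 was more frequent at starts. Of the 119 non-HFSC-only peaks within 3000 bp of a start 21 had EA-HFSC H3K27me3 (17.6%, 11.8 to 25.5), against 10.6% of all nEA-HFSC peaks there. Of the 1009 distal ones 55 did (5.45%, 4.21 to 7.03), against 6.23%. Counted by gene, 32 of the 150 genes with a non-HFSC-only peak at the start had an EA-HFSC H3K27me3 peak in the window (21.3%, 15.5 to 28.6), against 13.0% of all protein-coding genes. In 22 of the 32 it scored at least 100. The share of 21.3% fell to 3 of 43 genes (6.98%, 2.40 to 18.6) when both non-HFSC H3K4me3 peaks had to score at least 100. It was 13 of 107 (12.1%, 7.24 to 19.7) when the lists of a mark were trimmed to the same length, and 20 of 126 (15.9%) with scores of 100 or more in every list. In nEA-HFSCs, where H3K4me3 was present, H3K27me3 stood at 26 of the 150 (17.3%, 12.1 to 24.2, against 15.6% of all genes). It overlapped 20 of the 119 peaks near a start (16.8%, 11.2 to 24.5), against 15.1% of all nEA-HFSC peaks there. An LC-HFSC peak was found at 6 of the 150 genes (4.00%, 1.85 to 8.45), against 3.39%. Of the 93 genes without HFSC H3K4me3 at the start 23 had EA-HFSC H3K27me3 (24.7%, 17.1 to 34.4), as did 1151 of all 8835 such genes (13.0%). In nEA-HFSCs 20 of the 93 had it (21.5%, 14.4 to 30.9), against 13.1% of the 8835. Of the 17 genes with a peak of at least 500, 2 had EA-HFSC H3K27me3, Galnt6 (64.81) and Ehf (61.17). This is near the share of all genes (13.0%) and of genes with nEA-HFSC H3K4me3 at the start (12.0%).

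The 76 peaks with EA-HFSC H3K27me3 fell into those that shared the mark with non-HFSCs and those that did not. In 48 H3K27me3 was present in nEA-HFSCs or nLC-HFSCs as well. There the EA-HFSC H3K27me3 peak had a median score of 400 and a median width of 5290 bp, 41 of 48 scored at least 100, and the H3K4me3 peak had a median CpG ratio of 0.508. In the other 28 no non-HFSC H3K27me3 peak was called. Their median EA-HFSC H3K27me3 score was 73.7, 11 reached 100, and the CpG ratio was 0.391. The median score of all EA-HFSC H3K27me3 peaks was 68.8. Over the 76 together the H3K27me3 peak spanned the whole H3K4me3 peak in 48 and under 50% of it in 14. Non-HFSC-only peaks without EA-HFSC H3K27me3 had a median CpG ratio of 0.275. Another 20 had H3K27me3 in non-HFSCs and not in EA-HFSCs.

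Of the 10 non-HFSC-only peaks with the highest EA-HFSC H3K27me3 score, several had H3K27me3 in all 4 populations. Those nearest to Meis2, Lmx1a, Dmrt1 and Helt, which encode developmental transcription factors, were among them. The peak nearest to Meis2, a homeobox factor, lay between genes, 213130 bp from its start. That start had H3K4me3 in all 4 populations and H3K27me3 of 49.93 in EA-HFSCs, 282.17 in nEA-HFSCs and 168.59 in nLC-HFSCs. The distant peak had an H3K27me3 score of 3100.00 in EA-HFSCs, 114.84 in LC-HFSCs, 1087.31 in nEA-HFSCs and 1291.74 in nLC-HFSCs. Its H3K4me3 scores were 161.80 in nEA-HFSCs and 238.35 in nLC-HFSCs. In Lmx1a, a LIM homeobox factor, the H3K27me3 scores in the same order were 2596.03, 295.51, 2729.66 and 2240.84, with H3K4me3 at 124.42 and 91.17. At the peak by the start of Helt, a basic helix-loop-helix factor of neurons, they were 1395.55, 102.13, 2221.59 and 1017.10. At Dmrt1, a gonadal factor, they were 1846.75, 88.34, 165.81 and 821.03. The nEA-HFSC H3K4me3 score at these 4 peaks ran from 52.94 (Dmrt1) to 161.80 (Meis2).

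A promoter peak of Gm5607 had H3K27me3 of 3100.00 in EA-HFSCs, 3100.00 in nEA-HFSCs and 3103.99 in nLC-HFSCs. Intronic peaks stood in the BMP family ligand Gdf6 (1348.81 in EA-HFSCs) and the neuropeptide gene Adcyap1 (1214.46). Others lay between genes and were assigned by the nearest start alone. They were at position −10854 bp from Gm10320 (3007.68) and −39381 bp from the Fc receptor gene Fcgr1 (1799.38). The last lay 235391 bp from the transcription factor Mef2c (1481.93). Of these, Gm10320 (285.65) and Gdf6 (70.70) had an LC-HFSC peak, and had H3K27me3 in all 4 populations. The remaining peaks with LC-HFSC H3K27me3 were nearest to Mki67, Arhgef16 (in an intron of Prdm16), Ky, Tmem174, Sp4, Ntf3 and again Meis2, with scores of 42.58 to 70.64. Some were far from the start, at position −291790 bp for Mki67, −156482 bp for Sp4 and −107757 bp for Arhgef16. Ky alone of the 3 genes with LC-HFSC H3K27me3 and no HFSC H3K4me3 at the start (Ky, Helt and Dmrt1) had an H3K4me3 score above 200, at 311.43.

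H3K27me3 called in EA-HFSCs and in no other population stood at 28 peaks. The strongest, chosen after their values were seen, were in an intron of Il6ra, a chain of the interleukin-6 receptor (598.80), and near Gm996 (445.15), where the start window also held H3K27me3 of nEA-HFSCs (728.52) and nLC-HFSCs (121.00) outside the peak. All 3 peaks nearest to Tgfbr3 were among them, at 380.99, 113.86 and 105.13. Both Gm10272 (55.70) and Rab27a (56.97), from the 15 strongest H3K4me3 peaks, had an EA-HFSC H3K27me3 peak near the threshold of the list, and the other 13 had none.

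**Figure D5:**
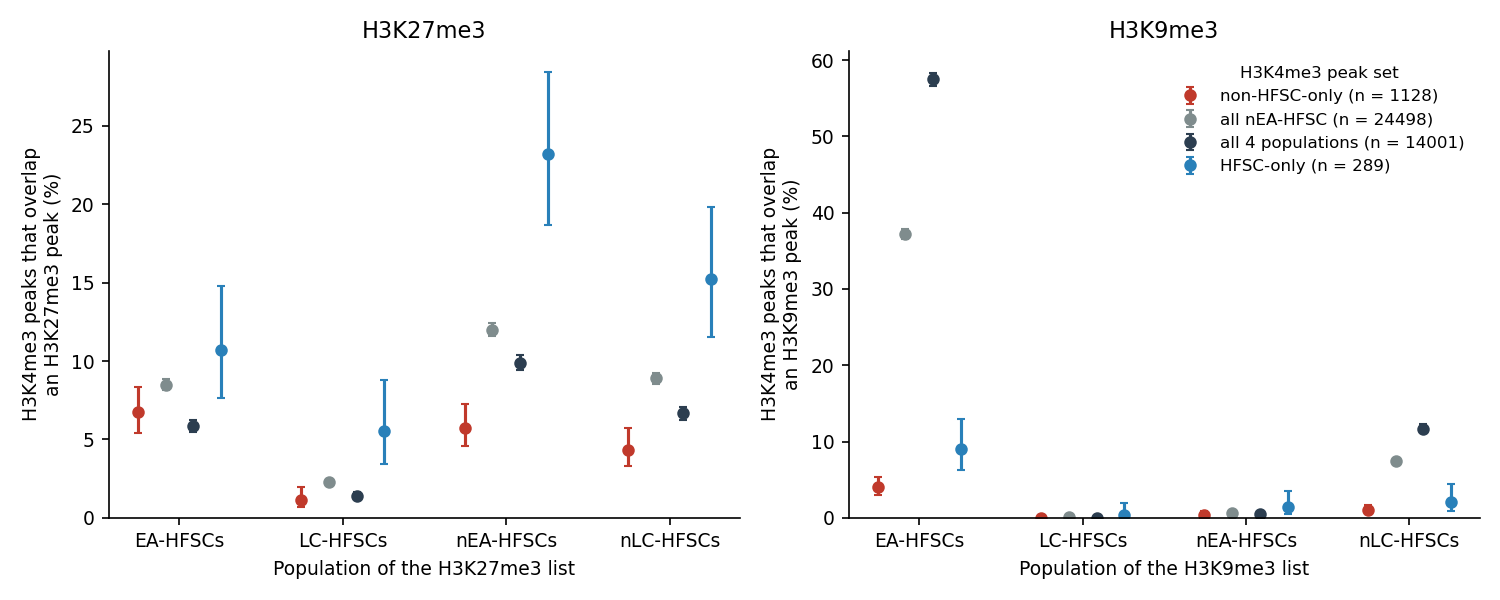
Percentage of H3K4me3 peaks of 4 sets that overlap an H3K27me3 (left) or H3K9me3 (right) peak of each population; bars are 95% Wilson intervals, which cover counting error only. Non-HFSC-only peaks (red) have 6.74% with EA-HFSC H3K27me3 and 1.15% with LC-HFSC H3K27me3, and HFSC-only peaks (blue) have 23.2% with nEA-HFSC H3K27me3.

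The mirror set was read against its own background. Of the 289 HFSC-only H3K4me3 peaks 67 (23.2%, 18.7 to 28.4) had H3K27me3 in nEA-HFSCs and 44 (15.2%, 11.5 to 19.8) in nLC-HFSCs, the populations that lacked H3K4me3 there, against 15.1% and 11.3% of all EA-HFSC H3K4me3 peaks. For non-HFSC-only peaks the shares in the HFSCs were 6.74% and 1.15%, against 8.48% and 2.27%. Among distal HFSC-only peaks 38 of 235 (16.2%, 12.0 to 21.4) had nEA-HFSC H3K27me3, against 13.0% of all distal EA-HFSC peaks. The H3K27me3 lists of the populations differ in length, and no replicate test of the difference could be made.

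H3K9me3 of EA-HFSCs and of nLC-HFSCs was less frequent at non-HFSC-only peaks than at nEA-HFSC peaks in general. It overlapped 45 non-HFSC-only peaks in EA-HFSCs (3.99%, 2.99 to 5.30), against 37.2% of all nEA-HFSC peaks. Among distal peaks the shares were 3.27% (2.34 to 4.56) and 13.1%, and near starts 10.1% (5.86 to 16.8) and 59.9%. In LC-HFSCs it overlapped 0 of 1128, which allows a share of up to 0.339%, against 0.0857% of all. In nEA-HFSCs it overlapped 4 (0.355%, 0.138 to 0.908, against 0.665%) and in nLC-HFSCs 11 (0.975%, 0.545 to 1.74, against 7.43%). In LC-HFSCs and nEA-HFSCs the interval held the share of all nEA-HFSC peaks. In peaks of all 4 populations the EA-HFSC share was 57.5%, and in HFSC-only peaks it was 9.00%. Counted by gene, 51 of the 150 with a non-HFSC-only peak at the start had EA-HFSC H3K9me3 there (34.0%, 26.9 to 41.9), against 45.2% of all genes. Among the 93 without HFSC H3K4me3 at the start the share was not lower than background. There 18 had it (19.4%, 12.6 to 28.5), against 11.3% of all genes without HFSC H3K4me3 at the start.

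Of 8 short motifs, each was counted in the middle 300 bp of each peak, on both strands. The AP-1 motif TGANTCA was present in 13.2% (11.2 to 15.4) of the 1009 distal non-HFSC-only peaks, against 11.0% of all distal nEA-HFSC peaks, 8.36% of distal peaks of all 4 populations and 8.94% (5.92 to 13.3) of distal HFSC-only peaks. The GATA motif AGATAA was present in 16.8%, against 13.9%, 9.68% and 13.2%. The RUNX motif TGTGGTT was present in 6.05%, against 5.85%, 4.43% and 2.98%, and the SOX motif ACAATG in 12.3%, against 11.3%, 8.95% and 13.2%. The other 4 were close to or below the share of all distal nEA-HFSC peaks. ETS (AGGAAG) was present in 36.7% against 36.4%, KLF (GGGNGTG) in 26.6% against 26.9%, LHX (TAATTA) in 6.24% against 6.12% and GRHL (ACCGGTT) in 0.694% against 1.10%. The mean GC content of these windows differed, at 49.0%, 51.7%, 55.1% and 49.4%, and its part in these shares was not tested. A match describes these letters only.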

How the data were processed

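The series holds ChIP-seq of H3K4me3, H3K27me3 and H3K9me3, with IgG as background, in 4 FACS-sorted populations (16 samples). Per the labels and the study's methods, chromatin was digested to mono-nucleosomes with MNase, reads were trimmed with Trimmomatic 0.22 and aligned to mm9 with Bowtie2, independent experiments were pooled, and peaks were called with MACS 1.4 against IgG at a p-value threshold of 1e-05 for H3K4me3 and 0.0001 for the others. The 12 deposited lists (1 per mark in every population) give position and a score, which is 10 times the negative log10 of the peak's p-value as the authors' caller wrote it. Read depth is unknown from these files. The paper states that LC-HFSCs had more reads than EA-HFSCs, and that their fewer peaks did not come from fewer reads. Between other lists, a missing peak may be a weak peak in a shallower library. The 4 IgG samples have no list here.

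Non-HFSC-only peaks were found by overlap of 1 bp with Python 3.11.15. Overlaps were checked on 20000 simulated peaks, where 100% of planted peaks were recovered, and with bedtools 2.31.1, which gave the same 1128 peaks. Positions, gene names and sequence came from the NCBIM37 (mm9) genome with GENCODE vM1, using 22367 protein-coding genes. A peak was assigned to the gene with the start nearest to its middle. Shares have 95% Wilson intervals, which cover counting error only. Since pooling left 1 list for a mark in a population, populations were not tested against each other and no p-value is given. Peaks are ranked by score, and those named are the 15 with the highest nEA-HFSC score, the 10 with the highest EA-HFSC and the 10 with the highest LC-HFSC H3K27me3 score, the 10 widest, the 10 genes with the most peaks (24 genes tied at 3 peaks, of which the first 6 in alphabetical order were taken), and genes of the lists and families with a peak at the start; others are marked in the text. The peaks and the gene lists were chosen with earlier results of these data known. Of the list symbols, Plet1, Krt85 and Gfi1 had no match. A further peak sequence is not reported here.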

Additional observations from a re-analysis of the deposited data

How the results depend on the processing

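No paired analysis was possible because pooling left 1 list for a mark in a population and the result comes from no test. Over 12 results, 10 planned settings and 3 added after seeing the data, 81 values stayed within the tolerance and 25 moved. The tolerance was 1.5-fold for counts and the 95% interval of the reported value for shares and medians, so it is narrow where that interval is. When every list was limited to scores of 100 or more there were 684 peaks, 3.66% of the nEA-HFSC list, 5.85% of them in promoters, with a median CpG ratio of 0.306. With that score required only in the non-HFSC H3K4me3 lists there were 302 (1.62%), 44.0% between genes and 5.30% with EA-HFSC H3K9me3, and 43 genes had one at the start, 6.98% of them with EA-HFSC H3K27me3. When lists of a mark were trimmed by score to the length of the shortest (14718 for H3K4me3) there were 393 (2.67%), 7.63% in promoters, 41.7% between genes, 5.34% with EA-HFSC and 2.04% with LC-HFSC H3K27me3, 2.80% with EA-HFSC H3K9me3, a CpG ratio of 0.321, and 12.1% of genes with EA-HFSC H3K27me3. An overlap of at least 50% gave 4.22% of the list and 2.71% with EA-HFSC H3K9me3, and a margin of 1000 bp to HFSC peaks gave 4.23%. Counting nLC-HFSC peaks gave 6.09% and a CpG ratio of 0.293. Without the need for an nLC-HFSC peak there were 5326. The cause of these shifts was not tested. Scores depend on library depth, which limits what an absent peak means.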
